A study of Mus musculus with 45 samples.

Results

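The genes of the translation initiation and elongation factors were followed in small-intestinal tuft cells from mice fed a reference diet (RFD, 10% fat) or a high-fat diet (HFD, 60% fat). Members were the protein-coding genes whose mouse symbol starts with Eif or Eef followed by a digit. Of 68 such genes, 67 were in the tables and 62 were kept because at least 6 of the 45 libraries held more than 5 of their reads, which made them 62 of the 14020 genes tested. Eef1a2, Eef1akmt3, Eif3j2, Eif4e1b and Eif5a2 did not pass this filter, and Eef1akmt4 was not analysed here.

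Each library came from sorted epithelial cells of 1 male C57BL/6J mouse, aged 5 weeks at arrival and housed at thermoneutrality. The study writes the sort gate as EpCAM+CD45+Siglec-F+, but it also states that CD45 served to leave out cells that express it. The libraries form an STF set with 11 mice on RFD and 11 on HFD, and an LTF set with 11 on RFD and 12 on HFD. The labels give 9 weeks of feeding for all 45 libraries, whereas the study describes an additional, longer feeding time, for which the LTF set was taken. Feeding time and set cannot be told apart.

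Initiation factors bring the initiator tRNA, the small ribosomal subunit and the messenger together at the start codon, and elongation factors then deliver each aminoacyl-tRNA and move the ribosome along. The eIF2 and eIF4E steps are the usual points of control. Kinases that phosphorylate eIF2α slow the loading of the initiator tRNA, the 4E-BP proteins hold eIF4E away from eIF4G, and eEF2 kinase slows elongation by phosphorylating eEF2. Dividing crypt cells of the gut make more of the translation machinery than many differentiated cells, whereas tuft cells are rare, chemosensory and mostly non-dividing.

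Library totals over all genes lay between 189340 and 4690213 reads. The filter count was low in 2 libraries, STF RFD mouse 40, in which 25 of the 62 members had more than 5 reads, and LTF RFD mouse 3, in which 34 did. In the other libraries 49 to 61 members had more than 5 reads. No 2 libraries held identical counts. The tuft markers Dclk1, Trpm5 and Siglecf were at 1090 ± 487, 2641 ± 1748 and 944 ± 499 CPM (read counts scaled by TMM to a common library size) in the STF RFD group (SD, n = 11), so the labelled cell type was present. Summed over 15 tuft markers, however, the libraries ranged from 917 to 24490 CPM, and summed over 6 Paneth cell markers they ranged from 29.7 to 586300 CPM.

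Levels were compared between genes as TPM, transcript abundances scaled to a common total, which take the length of each gene into account. Eef1a1, which encodes the GTPase that carries aminoacyl-tRNA to the ribosome, was highest with 1029 ± 477 TPM (SD over all 45 libraries, diet and set included). It was followed by Eif1, a guardian of start codon selection, with 849 ± 396 TPM and by Eif5a, which helps the ribosome through difficult peptide bonds, with 411 ± 165 TPM. The ranges of these 3 genes overlapped, from 430 to 2328 TPM for Eef1a1 and from 94.6 to 1644 TPM for Eif1, so their order is that of the means only. Eif4a1, the helicase of the cap complex, led its group with 259.8 TPM, Eif3k led the 13 measured eIF3 subunits with 161 TPM, and Eif2s3y led the eIF2 group with 33.1 TPM. Summed over their members, the mean levels were 2037 TPM for the 7 elongation factors, 1156 TPM for the 8 genes of start site selection and subunit joining, 743 TPM for eIF3 and 697 TPM for the 11 genes of the cap complex. The regulators lay far lower, at 22.4 TPM for the 4 eIF2 kinases and 36.8 TPM for the 4 inhibitors of eIF4E. Genes were grouped largely by symbol, with Eef1e1 placed under the elongation factors and Eif4a3, Eif4e2 and Eif4g2 under the cap complex. A group name therefore does not state the role of every gene in it. Eif2b1 led the 5 eIF2B genes with 27.6 TPM, Eef1akmt1 led the enzymes that modify elongation factors with 31.2 TPM, Eif4ebp1 led the inhibitors with 21.2 TPM and Eif2ak1 led the kinases with 9.93 TPM. The median of the share of the members' summed TPM that Eef1a1 took was 19.4% in STF RFD, 24.85% in STF HFD, 14.0% in LTF RFD and 19.7% in LTF HFD.

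**Figure D1:**
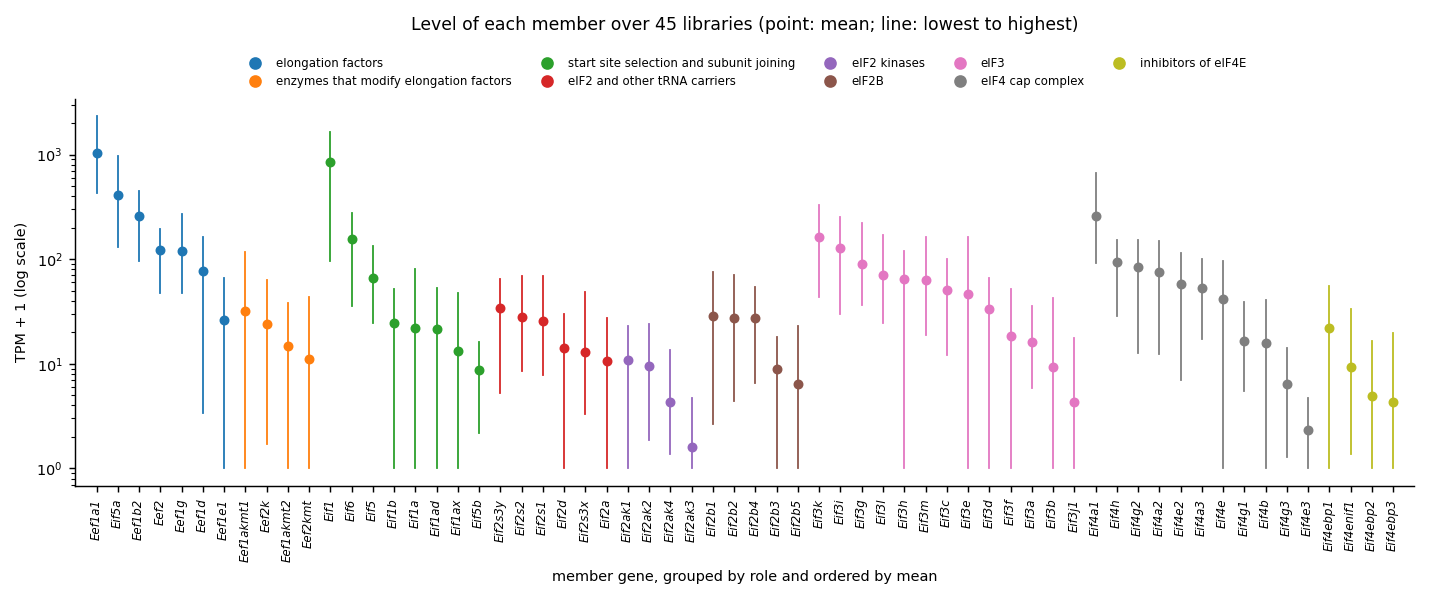
TPM + 1 of each of the 62 members on a log scale, grouped by role, with the mean over 45 libraries as a point and the lowest to highest library as a line. Eef1a1 at 1029 TPM and Eif1 at 849 TPM stand highest.

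Many messengers of the translation machinery begin with a cytosine and a run of pyrimidines, the 5′ terminal oligopyrimidine tract through which mTORC1 adjusts their translation. Promoters from RefSeq (GRCm38.p6) were found for 49 of the 62 members. Those of Eef1akmt1, Eef1d, Eif3h, Eif4ebp3, Eif4g2, Eif3e, Eif2b3, Eif1a, Eif4ebp1, Eif4e3, Eef1g, Eif6 and Eif3i were not matched. A cytosine exactly at an annotated start and at least 4 pyrimidines after it, on the strand of the gene, were held by Eif3f and Eif2s3x, 2 of the 49 (4.08%). Bases before the start were not considered. The share was 3.01% of 27025 genes of the promoter table and 22.03% of 59 cytosolic ribosomal protein genes. With the tract allowed to begin up to 5 bases on either side of the start, 14 of the 49 members (28.6%) held it, against 21.2% of all genes and 49.2% of the ribosomal protein genes. The windows below show both genes with a tract at the start, and Eef1a1, Eif4a1 and Eef2k from the called members with an entry. The called member Eif5a had entries at several starts, none with a tract within 5 bases, and is not shown. Each window begins 10 bases before the start and holds 30 bases on the strand of the gene, with the tract in capitals.
Eif3f, chr7:108934405-108934434, plus strand: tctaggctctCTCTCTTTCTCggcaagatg
Eif2s3x, chrX:94212632-94212661, minus strand: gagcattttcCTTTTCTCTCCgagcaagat
Eef1a1, chr9:78481705-78481734, minus strand: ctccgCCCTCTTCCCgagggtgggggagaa
Eif4a1, chr11:69672404-69672433, minus strand: gtaacgtcacgtcgagttgcagagcgccgg
Eef2k, chr7:120842821-120842850, plus strand: cccgtgcgtcagtcccgccccagccctggt
In Eif3f and Eif2s3x pyrimidines also stood directly before the annotated start. Their run thus begins further upstream, and the capitals show its part from the start on. In Eef1a1 the tract began 5 bases before the annotated start, and the windows of Eif4a1 and Eef2k held none of this form. A match of letters is a description of the window only.

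In the STF set, translation factor genes were more often higher than lower on HFD. By the quasi-likelihood test of edgeR, adjusted over all genes tested by the Benjamini-Hochberg method and called under 0.1, 9 of the 62 members were called, against 3.32% of all 14020 genes. Of these, 8 rose on HFD (background 2.0%) and 1, Eef2k, fell (background 1.33%). Elongation factors were the group with the most calls, with 4 of 7. At an unadjusted p under 0.05 there were 24 higher members (background 9.73%) and 3 lower ones (background 8.27%). The median log2 fold change of the 62 members was 0.40 against -0.05 over all genes tested, and 47 of the 62 were higher on HFD, or 45 with RLE size factors, 41 with limma on log2(TPM + 1) and 38 with stem and dividing cell markers as a covariate.

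These counts depended on single libraries. Leaving out each of the 22 libraries in turn gave 0 to 23 calls. No member was called without RFD mouse 1, 21 or 23 or without HFD mouse 6, 8, 70 or 80, and 1 was called without RFD mouse 24 or 84. In brackets is the share of all 14020 genes called in the same fit. There were 2 calls without RFD mouse 3 (1.54%) or HFD mouse 50 (1.41%), and 3 without RFD mouse 22 (1.65%) or HFD mouse 62 (1.53%). There were 4 without RFD mouse 4 (2.95%) or HFD mouse 5 (1.88%), whereas 22 members were called without RFD mouse 20 and 23 without HFD mouse 64. The calls over all genes moved with them, to 1673 of 14020 (11.9%) without RFD mouse 20 and 1996 (14.2%) without HFD mouse 64, against 59 to 124 genes (0.421% to 0.884%) in the 9 fits with at most 1 member called. The count was 6 without RFD mouse 40, with 3.5% of all genes called. Of the 22 fits, Eef2k was called in 15, Eef1a1 in 13, Eif3e in 11, Eif4a1 in 9, Eef1g and Eif5a in 6 each, and Eef1d, Eif3h and Eif1a in 5 each. Over 9 other settings of the fit, Eef2k was called in 7, Eef1a1 in 6, Eef1d, Eif3e and Eif4a1 in 5, Eif5a in 4, Eif1a and Eif3h in 3 and Eef1g in 2. The median log2 fold change of the members stayed between 0.30 and 0.43 in these 22 fits.

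Markers of other cells moved with diet in the same libraries. All 7 measured stem and dividing cell markers were higher on HFD and 2 of them were called, Olfm4 with a log2 fold change of 2.05 (adjusted p = 0.0848, edgeR's quasi-likelihood test) and Stmn1 with 1.67 (adjusted p = 0.0948). Their summed level ranged from 252 to 2105 CPM in RFD mice (median 436) and from 180 to 6588 CPM in HFD mice (median 1400). The summed Paneth markers ranged from 51.9 to 104100 CPM in RFD mice (median 2595) and from 104 to 586300 CPM in HFD mice (median 26090), with 0 of 6 called and 1 at an unadjusted p under 0.05. The summed tuft markers ranged from 3394 to 20240 CPM in RFD mice (median 13260) and from 917 to 19810 CPM in HFD mice (median 5795). All 15 tuft markers had fold changes below 0, of which 0 were called and 7 had an unadjusted p under 0.05. Enterocyte markers moved in both directions, with 7 of 11 at an unadjusted p under 0.05, Rbp2 called higher (log2 fold change 1.32, adjusted p = 0.0432, edgeR) and Apoc3 called lower (-1.56, adjusted p = 0.0151, edgeR). Their sum ranged from 4750 to 15830 CPM in RFD mice (median 11730) and from 6560 to 30130 CPM in HFD mice (median 8586). None of 7 enteroendocrine markers was called or had an unadjusted p under 0.05, and their sum ranged from 205 to 1166 CPM in RFD mice (median 369) and from 61.2 to 5812 CPM in HFD mice (median 213). T cell markers were low in both groups, with medians of 17.5 and 0.806 CPM for the sum, and Trac had reads in 6 of the 45 libraries. In bulk samples, fewer cells of a type and less RNA per cell cannot be told apart.

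Several libraries at the extremes of these markers were also at the extremes of the members' summed CPM. HFD mouse 80 had the highest sum over the members (16530 CPM), the highest stem and dividing sum (6588 CPM) and the lowest tuft sum (917 CPM). RFD mouse 20 had the highest member sum of its group (10920 CPM) and the highest stem and dividing sum (2105 CPM). HFD mouse 64, with the lowest member sum on HFD (6549 CPM), had the lowest stem and dividing sum (180 CPM) and the highest tuft sum on HFD (19810 CPM). RFD mouse 40, with the fewest reads, had the lowest member sum (3693 CPM) and the lowest tuft sum on RFD (3394 CPM). By summed TPM the order of these libraries differed. HFD mouse 80 had the lowest member sum on HFD (2149 TPM, group median 4985), and HFD mouse 64 had 4902 TPM. RFD mouse 20 had 4596 TPM (group median 4662), and RFD mouse 40 was again lowest on RFD (1799 TPM). With the mean log2 CPM of the stem and dividing markers as a covariate, a fit added after the data had been seen, 0 of the 62 members and 1 of the 14020 genes were called, and the median log2 fold change of the members was 0.09 against -0.11 over all genes. With the difference between tuft and other markers as the covariate, 1 member (Eef2k) and 43 genes were called, and the members' median was 0.26. The marker levels and diet were associated in these libraries, and their contributions cannot be told apart.

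**Figure D2:**
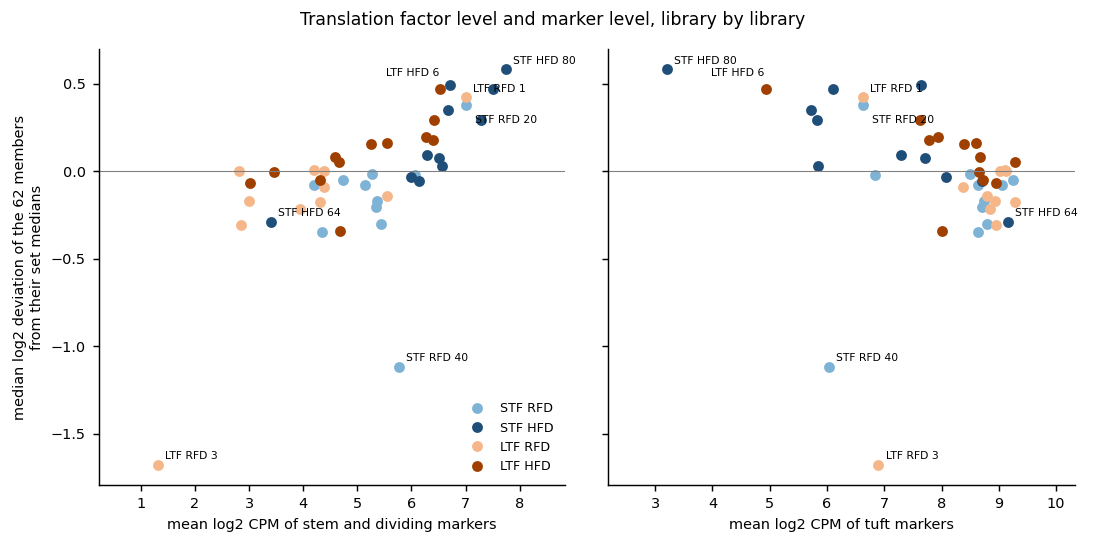
Median log2 deviation of the 62 members from their medians within the set (vertical axis) against the mean log2 CPM of stem and dividing markers (left) and of tuft markers (right), with 1 point per library. Libraries high in stem and dividing markers, such as STF HFD 80, lie above 0, and STF RFD 40 and LTF RFD 3 lie lowest.

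Among the elongation factors, Eef1a1 (chr9:78478449-78489151, GRCm38) had 955 to 2953 CPM in RFD mice (median 1270) and 1258 to 6431 CPM in HFD mice (median 2204). The groups overlapped, with 10 of 11 HFD mice above the RFD median and 4 above every RFD mouse. Its log2 fold change was 0.95 ± 0.25 (SE), at an edgeR adjusted p of 0.0662. RSEM divides reads that match several genes, and 97.8% of its counts above 0 were not whole numbers, so its level is uncertain where copies share its sequence. Mouse numbers fall into 3 series, 1 to 8, multiples of 10, and a last one that holds RFD mice 21 to 24 and HFD mice 62 to 64, with RFD mouse 84 in none. Within these series the differences in mean log2 CPM were 0.94, 0.93 and 0.59.

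Eef1d and Eef1g encode the δ and γ subunits of the exchange complex that recharges eEF1A with GTP. Eef1d had 6.37 to 82.3 CPM in RFD mice (median 47.0) and 51.4 to 108 CPM in HFD mice (median 75.4), and 11 of 11 HFD mice were above the RFD median. Its log2 fold change was 0.82 ± 0.25 (SE), at an edgeR adjusted p of 0.0869, and its lowest RFD value came from mouse 40, the library with the fewest reads. Eef1g had 144 to 401 CPM in RFD mice (median 192) and 124 to 742 CPM in HFD mice (median 349), with a log2 fold change of 0.76 ± 0.23 (SE), at an edgeR adjusted p of 0.088, and 95.6% of its counts were not whole. In a fit with the number series as a further term, which also left out RFD mouse 84, its adjusted p was 0.108 (edgeR), and it was not called. Without that mouse alone Eef1g was not called either. The lowest of all 22 values of Eef1g was in an HFD mouse, although 10 of 11 HFD mice were above the RFD median.

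Eif5a, named as an initiation factor but known to act in elongation, had 159 to 867 CPM in RFD mice (median 374) and 404 to 1149 CPM in HFD mice (median 630). All 11 HFD mice were above the RFD median and 2 were above every RFD mouse, with a log2 fold change of 0.77 ± 0.23 (SE), at an edgeR adjusted p of 0.0879. The translocase gene Eef2 did not pass the threshold, with 242 to 641 CPM in RFD mice (median 445) and 329 to 748 CPM in HFD mice (median 480) and a log2 fold change of 0.16 ± 0.18 (SE), at an edgeR adjusted p of 0.695. The fold changes of all 7 genes grouped as elongation factors, Eef1e1 among them, were above 0, with a median of 0.76. However, that of Eef2 was -0.0106 with limma on log2(TPM + 1).

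Eef2k (chr7:120842831-120907450), the kinase that inhibits eEF2, was the called member that moved down. It had 31.8 to 214 CPM in RFD mice (median 80.2) and 8.74 to 100 CPM in HFD mice (median 31.6). Of the HFD mice, 10 of 11 were below the RFD median and 6 were below every RFD mouse, while 4 RFD mice were above every HFD mouse. The log2 fold change was -1.30 ± 0.32 (SE), at an edgeR adjusted p of 0.0565. Within the 3 number series the differences were -1.57, -1.34 and -0.92. Over the other settings its adjusted p (edgeR, DESeq2 or limma) ran from 0.00213 to 0.657. The other modifying enzymes did not pass the threshold. Eef2kmt, which methylates eEF2, had a log2 fold change of 0.95 ± 0.48 (SE), at an edgeR adjusted p of 0.30, with 64.3% of its counts not whole, and Eef1akmt1, a methyltransferase of eEF1A, had 0.50 ± 0.32 (SE), at an edgeR adjusted p of 0.427.

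**Figure D3:**
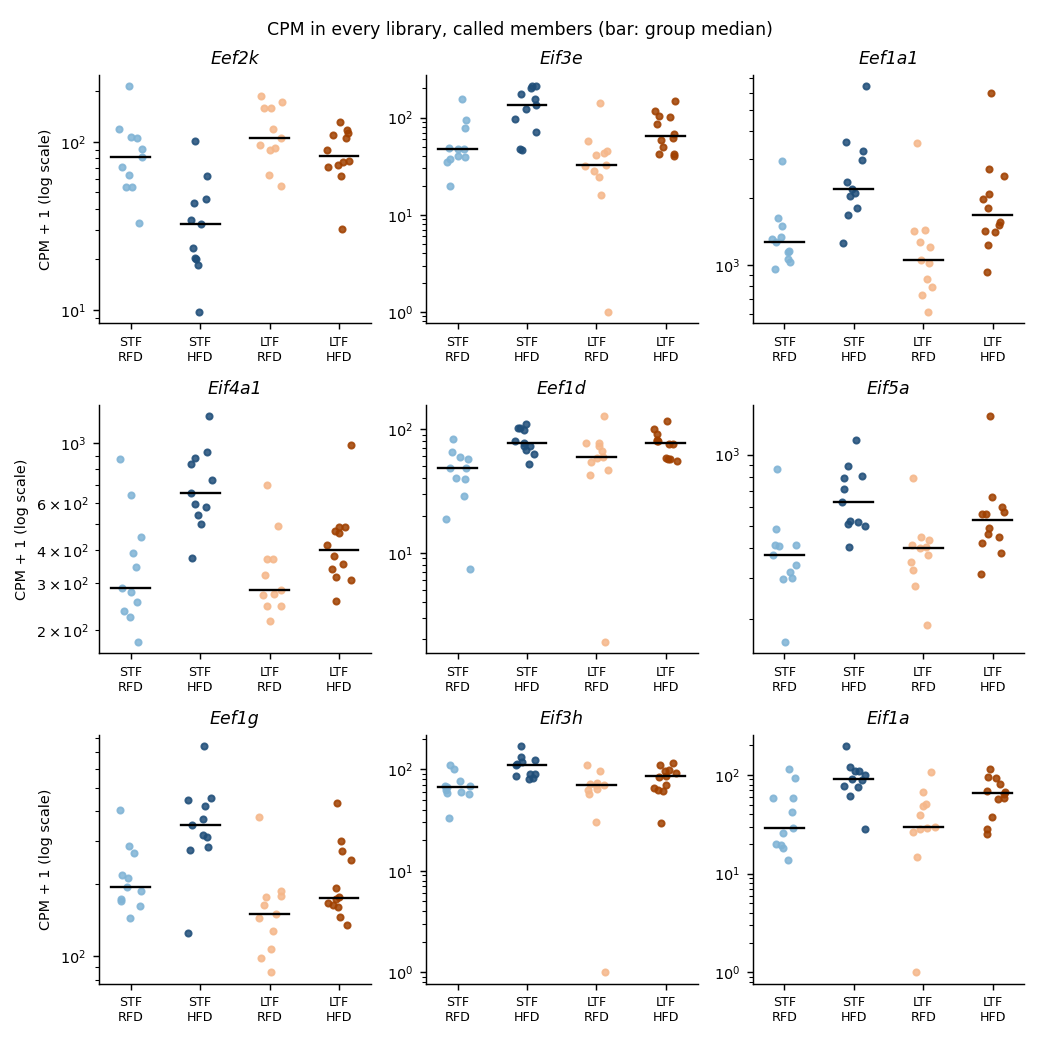
CPM + 1 on a log scale of the 9 called members in every library, by set and diet, with the group median as a bar. In the STF set the HFD medians lie above the RFD medians for 8 genes and below for Eef2k, with overlapping groups in every panel.

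Among the genes of start site selection, Eif1a was called and its X-linked relative Eif1ax was not. Both encode eIF1A, which with eIF1 holds the small subunit open for scanning. Eif1a had 12.6 to 113.5 CPM in RFD mice (median 27.97) and 27.4 to 194.5 CPM in HFD mice (median 90.3), and 10 of 11 HFD mice were above the RFD median. The log2 fold change was 1.11 ± 0.34 (SE), at an edgeR adjusted p of 0.097, and that of Eif1ax was 0.61 ± 0.31 (SE), at an edgeR adjusted p of 0.309. Eif1 pointed the other way with 191 to 747 CPM in RFD mice (median 506) and 192 to 564 CPM in HFD mice (median 368), a log2 fold change of -0.41 ± 0.21 (SE), at an edgeR adjusted p of 0.319, and 9 of 11 HFD mice below the RFD median. Of the 8 genes in this group, 5 had fold changes above 0.

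None of the 6 genes of eIF2 and other tRNA carriers was called in the main edgeR fit, but 4 were higher at an unadjusted p under 0.05. DESeq2 called Eif2s1 and Eif2s3x, and so did edgeR without the filter on low counts. Eif2s3x, the X-linked gene of eIF2γ, had 16.9 to 77.2 CPM in RFD mice (median 31.4) and 6.63 to 96.3 CPM in HFD mice (median 78.7). Of the HFD mice, 6 of 11 lay above every RFD mouse and 1 lay below every RFD mouse, and the log2 fold change was 0.96 ± 0.31 (SE), at an edgeR adjusted p of 0.104. The differences in mean log2 CPM within the number series were 1.58, 0.45 and -0.00035. In the last series HFD mouse 63 had 6.63 CPM, the other HFD mice had 53.9 and 61.2 CPM and the RFD mice had 24.5 to 33.3 CPM, and without HFD mouse 63 the difference was 1.01. Its Y-linked copy Eif2s3y had 19.1 to 52.4 CPM in RFD mice (median 34.6) and 28.2 to 62.4 CPM in HFD mice (median 35.9), with a log2 fold change of 0.06 ± 0.22 (SE), at an edgeR adjusted p of 0.915. Between the pair, 22.2% of the Eif2s3x counts and none of the Eif2s3y counts were not whole. Eif2s1, which encodes the α subunit that the kinases phosphorylate, had 0.76 ± 0.29 (SE), at an edgeR adjusted p of 0.169, and the β subunit gene Eif2s2 had 0.65 ± 0.26 (SE), at an edgeR adjusted p of 0.173.

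No eIF2 kinase gene was called in the main edgeR fit, and 1 of the 4 had an unadjusted p under 0.05. Eif2ak2, the double-stranded RNA sensor PKR, had 15.4 to 57.2 CPM in RFD mice (median 39.2) and 8.04 to 34.1 CPM in HFD mice (median 23.2), and 11 of 11 HFD mice were below the RFD median. Its log2 fold change was -0.82 ± 0.28 (SE), at an edgeR adjusted p of 0.129, and it was called by DESeq2. Eif2ak4, the amino acid sensor GCN2, had 1.44 to 24.7 CPM in RFD mice (median 15.1) and 2.91 to 28.5 CPM in HFD mice (median 8.04), with a log2 fold change of -0.43 ± 0.44 (SE). Eif2ak3, the endoplasmic reticulum sensor PERK, had no read in 4 RFD and 6 HFD libraries and at most 10.6 CPM in any, which leaves a difference undetectable at this depth. Eif2ak1, the haem-regulated kinase, had 23.4 to 61.5 CPM on RFD and 22.2 to 65.3 CPM on HFD, with a log2 fold change of 0.0049 ± 0.23 (SE) that was -0.0233 with RLE size factors. The 5 eIF2B genes encode the exchange factor that the phosphorylated eIF2 blocks. None of them was called in the main edgeR fit, and 1 was higher at an unadjusted p under 0.05. Eif2b1 had 16.8 to 88.8 CPM on RFD and 38.7 to 131 CPM on HFD, with a log2 fold change of 0.70 ± 0.27 (SE), at an edgeR adjusted p of 0.162.

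Of the 13 eIF3 genes, whose products form the scaffold of the initiation complex, 2 were called higher, 5 more were higher at an unadjusted p under 0.05, and 12 had fold changes above 0. Eif3e (chr15:43250058-43282719) had 18.6 to 156 CPM in RFD mice (median 46.0) and 45.2 to 211 CPM in HFD mice (median 134). It had the highest fold change of all members, 1.20 ± 0.32 (SE) on the log2 scale at an edgeR adjusted p of 0.0662, with 10 of 11 HFD mice above the RFD median, and differences within the number series of 1.501, 0.98 and 0.90. Eif3h had 31.8 to 110 CPM in RFD mice (median 65.1) and 79.4 to 167 CPM in HFD mice (median 109.5). All 11 HFD mice exceeded the RFD median, and the log2 fold change was 0.63 ± 0.19 (SE), at an edgeR adjusted p of 0.0939. Eif3h was not called in the fit with the number series and without RFD mouse 84 (adjusted p = 0.119, edgeR), nor without that mouse alone. Eif3k, the eIF3 subunit gene with the highest TPM, had a log2 fold change of 0.18 ± 0.19 (SE), at an edgeR adjusted p of 0.678, and Eif3m had 0.65 ± 0.27 (SE), at an edgeR adjusted p of 0.189.

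In the group named for the cap complex, 1 of 11 genes was called in the main edgeR fit. Eif4a1 had 180 to 870 CPM in RFD mice (median 287) and 374 to 1265 CPM in HFD mice (median 651), and 11 of 11 HFD mice were above the RFD median. The log2 fold change was 0.93 ± 0.26 (SE), at an edgeR adjusted p of 0.0678, the differences within the number series were 0.88, 0.70 and 1.23, and none of its counts above 0 was whole. Eif4e, which binds the cap, had a log2 fold change of 0.71 ± 0.29 (SE), at an edgeR adjusted p of 0.188. The scaffold gene Eif4g3 lay the other way with 12.3 to 61.5 CPM in RFD mice (median 30.2) and 2.91 to 54.8 CPM in HFD mice (median 13.8), a log2 fold change of -1.11 ± 0.39 (SE), at an edgeR adjusted p of 0.138, and 5 of 11 HFD mice below every RFD mouse.

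No inhibitor of eIF4E was called in the main edgeR fit, and 1 of the 4 was higher at an unadjusted p under 0.05. Eif4ebp1 had 6.96 to 32.1 CPM in RFD mice (median 15.4) and 3.37 to 54.8 CPM in HFD mice (median 29.5), with a log2 fold change of 0.84 ± 0.35 (SE), at an edgeR adjusted p of 0.20. Eif4ebp2 had -0.46 ± 0.53 (SE) and was at most 38.2 CPM. Eif4ebp3 had no read in 4 RFD and 3 HFD libraries and was at most 8.29 CPM, so its log2 fold change of 1.09 ± 0.96 (SE) was not resolved at this depth.

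**Figure D4:**
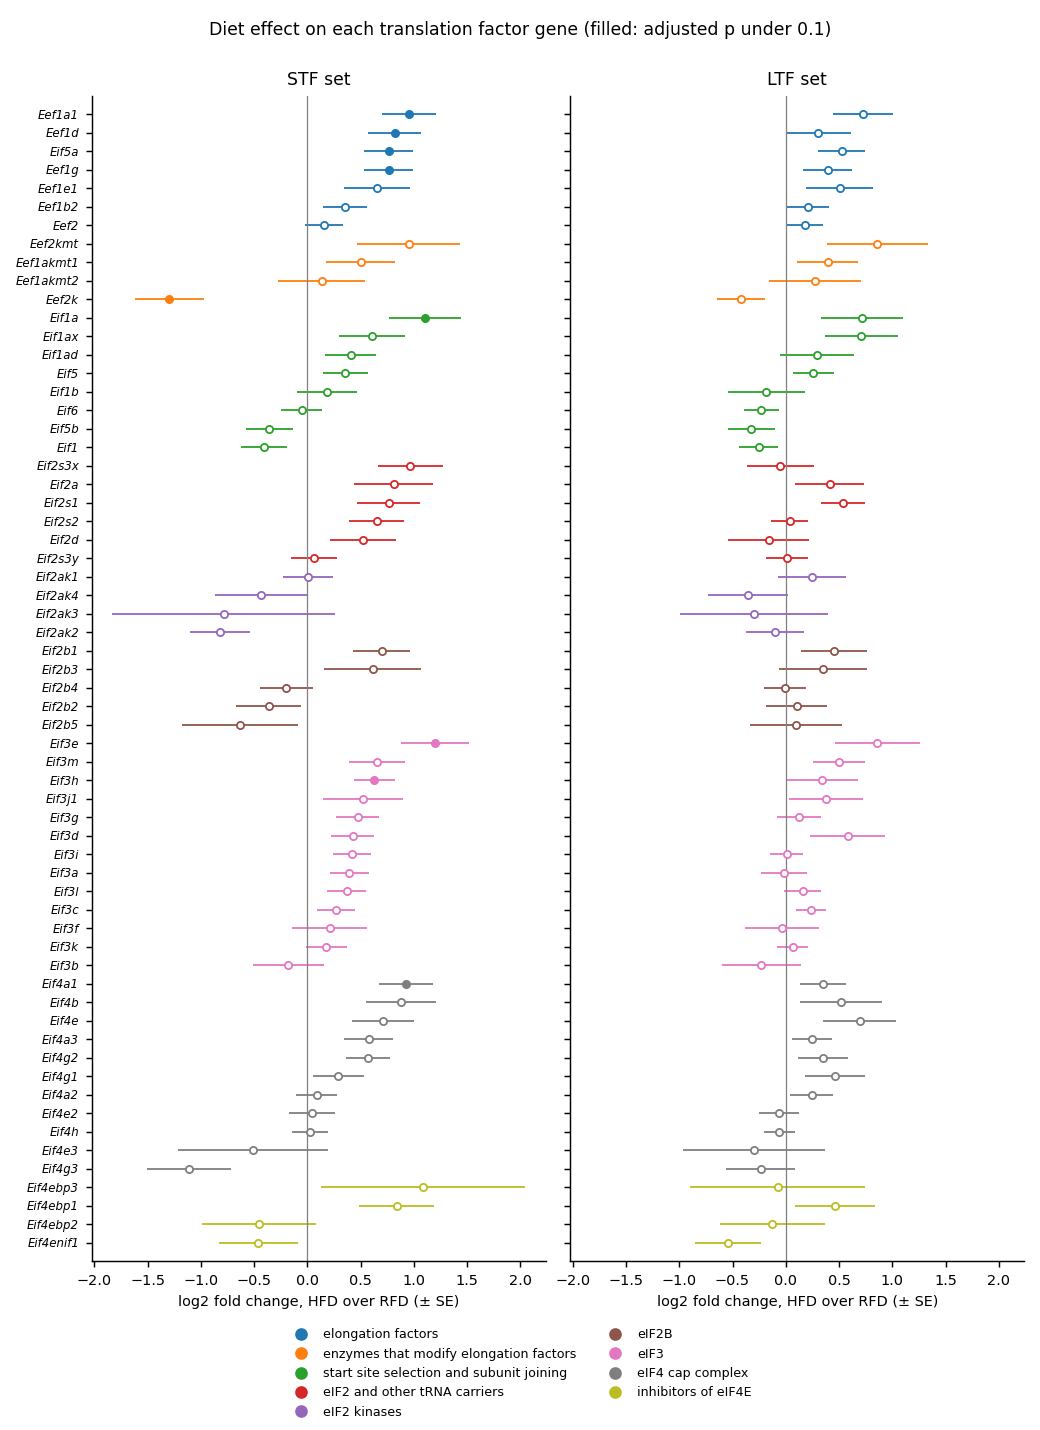
Log2 fold change of HFD over RFD with its SE for each of the 62 members in the STF set (left) and LTF set (right), coloured by role, with filled points for an adjusted p under 0.1. The STF set has 9 filled points, 8 right of 0 and Eef2k left of it, and the LTF set has none.

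In the LTF set, 0 of the 62 members were called by edgeR's quasi-likelihood test, against 0.792% of all genes, and DESeq2 called 0 as well. At an unadjusted p under 0.05 there were 6 members, all higher on HFD (background 4.69%), and no lower member (background 5.61%). The median log2 fold change was 0.22 against -0.03 over all genes tested, and 41 of the 62 were above 0. The 6 genes were Eif2s1, Eef1a1, Eif5a, Eif3e, Eif3m and Eif1ax. Eef1a1 had 611 to 3547 CPM in RFD mice (median 1045) and 923.5 to 5944 CPM in HFD mice (median 1684), with 11 of 12 HFD mice above the RFD median and a log2 fold change of 0.72 ± 0.28 (SE), at an edgeR adjusted p of 0.351. Eif2s1 had the smallest p, with 49.1 to 164 CPM in RFD mice (median 70.8) and 68.8 to 171 CPM in HFD mice (median 111.5) and a log2 fold change of 0.54 ± 0.21 (SE), at an edgeR adjusted p of 0.337. Eif3e had 0 to 142 CPM in RFD mice (median 31.5) and 39.2 to 148 CPM in HFD mice (median 63.8), and 12 of 12 HFD mice were above the RFD median. Its log2 fold change was 0.86 ± 0.40 (SE), at an edgeR adjusted p of 0.459.

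Single libraries weighed on this set too. Leaving out RFD mouse 1 gave 7 calls, all higher (Eef1a1, Eef1g, Eif2s1, Eif3e, Eif3m, Eif4e and Eif5a), with 667 of 14020 genes called (4.76%) in place of 111, and leaving out any other library gave 0. RFD mouse 1 had the highest member sum of its group (11770 CPM), the highest stem and dividing marker sum (2469 CPM) and the lowest tuft marker sum (3936 CPM). RFD mouse 3 had no read of Eif1a, Eif1ax, Eif3e, Eif3h or Eif4e, and 10 members had an unadjusted p under 0.05 without it. With the difference between tuft and other markers as a covariate, Eef1a1 was called (adjusted p = 0.0792, edgeR) among 180 genes, and with the stem and dividing markers as the covariate 0 members had an unadjusted p under 0.05 and the median was 0.05. The summed stem and dividing markers ranged from 96.5 to 2469 CPM in RFD mice (median 208) and from 121 to 2080 CPM in HFD mice (median 339), with 6 of 7 above 0 and 0 called. Of 7 enteroendocrine markers, 6 were lower at an unadjusted p under 0.05 and 2, Cck and Gcg, were called, and their sum ranged from 129 to 1015 CPM in RFD mice (median 606) and from 77.8 to 327 CPM in HFD mice (median 192). Of 11 enterocyte markers, Rbp2 and Mttp were called higher and Slc5a1 lower, and 7 had an unadjusted p under 0.05, with sums from 8059 to 38090 CPM in RFD mice (median 20890) and from 13040 to 48390 CPM in HFD mice (median 21780). Their part in the values of the members was not tested.

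Eef2k, lower on HFD in the STF set, had 53.9 to 186 CPM in RFD mice (median 105) and 29.4 to 131 CPM in HFD mice (median 81.9) in the LTF set, with a log2 fold change of -0.42 ± 0.23 (SE), at an edgeR adjusted p of 0.539. Eif2ak2 had 17.7 to 56.9 CPM in RFD mice (median 26.1) and 11.1 to 46.0 CPM in HFD mice (median 25.0), with -0.10 ± 0.27 (SE). Eif2s3x had 25.6 to 152 CPM in RFD mice (median 32.1) and 16.5 to 70.1 CPM in HFD mice (median 50.3), with a fitted log2 fold change of -0.05 ± 0.31 (SE), although 9 of 12 HFD mice were above the RFD median. The difference between the sets was tested as an interaction of diet and set over all 45 libraries. None of the 62 members passed, as did none of the 14020 genes (0.0%), and 3 had an unadjusted p under 0.05 (background 3.22%). DESeq2 called 0 members. A change in the STF set that was not called in the LTF set was therefore not shown to differ between them.

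Other genes of translation were read from lists, to be set against 3.32% of all genes called in the STF set and 9.73% higher and 8.27% lower at an unadjusted p under 0.05. Of 80 cytosolic ribosomal protein genes tested, many of which have near-identical copies, 42 were called in the STF set, all higher, with a median log2 fold change of 0.71, and 0 in the LTF set, where 31 were higher at an unadjusted p under 0.05 and the median was 0.39. Of 9 members listed from general knowledge as having messengers with a terminal pyrimidine tract, 5 were called in the STF set (Eef1a1, Eef1d, Eef1g, Eif3e and Eif3h). The median of the 9 was 0.76. The promoter windows do not establish this list. Eef1d, Eef1g, Eif3e and Eif3h had no promoter entry, and the tract of Eef1a1 began 5 bases before the annotated start. The listed Eef1b2, Eef2 and Eif4b had entries without a tract within 5 bases of the start. Among 18 termination, recycling and accessory factors, 1 was called, the poly(A)-binding protein gene Pabpc1, with 171 ± 67.3 CPM in the RFD group and 328 ± 141 CPM in the HFD group (SD over 11 mice each), a log2 fold change of 0.93 and an adjusted p of 0.0561 (edgeR). Of 9 mitochondrial translation factors 0 were called, as of 16 genes of mTORC1 signalling, by edgeR, with 3 and 4 at an unadjusted p under 0.05. Of 13 targets of the eIF2 phosphorylation response, 1 was called, the asparagine synthetase gene Asns, with 26.7 ± 28.2 CPM in RFD and 72.4 ± 43.4 CPM in HFD mice (SD, log2 fold change 1.41, adjusted p = 0.0847, edgeR). Atf4, the transcription factor at the head of that response, had 37.3 ± 14.3 CPM in RFD and 47.1 ± 25.7 CPM in HFD mice (SD, log2 fold change 0.33, adjusted p = 0.566, edgeR). Ddit3, which encodes CHOP of the same response, had 18.5 ± 7.04 CPM in RFD and 11.5 ± 5.87 CPM in HFD mice (SD, log2 fold change -0.70, adjusted p = 0.23, edgeR), with 10 of 11 HFD mice below the RFD median. The fold changes of the 13 targets were above 0 for 8 and below 0 for 5. None of these lists held a called gene in the LTF set.

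The spread of the members between mice was also read from the fit. The median biological coefficient of variation, the relative spread between mice beyond counting error, was 0.440 for the members and 0.728 for all genes tested in the STF set, and 0.457 and 0.629 in the LTF set. Members were also more highly expressed, with a median of 5.997 against 3.78 log2 CPM in the STF set, and this coefficient falls with level, and the difference in spread was not tested.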

How the data were processed

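Tuft cell RNA was amplified by Smart-seq2 and sequenced in bulk. Per the submitters' processing notes the authors used Cutadapt 1.15, STAR 2.6.0 and RSEM on GRCm38. The deposited tables hold expected counts per gene, and TPM and FPKM computed by the authors with RSEM. The counts precede the authors' filter and cell type weighting, which were not repeated, and 24 columns matching no sample were not used. Symbols came from GENCODE M21. Counts were rounded to whole numbers, and genes with more than 5 reads in at least 6 of 45 libraries were kept. edgeR 4.0.16 (R 4.3.3) fitted HFD against RFD in each set with TMM scaling and the quasi-likelihood test, Benjamini-Hochberg adjustment and a threshold of 0.1. Robust estimation was adopted after a fit without it had been seen, to follow earlier processing of these data. Alternatives used DESeq2 1.42.0 and limma 3.58.1 on log2(TPM + 1), other scaling, filters, covariates and libraries. The fit was tested on simulated data, in which only well-covered genes were changed, by larger folds than those of the called members. Its power at the fold changes reported here was therefore not tested. Named genes were the called members, the 10 smallest p values per set and 5 of the interaction, the highest TPM of each role, and a list of regulators. Members and lists were chosen with earlier results of these data known. Mice were the replicates, 4 were housed per cage, and the precision is limited by their number and by read depth. The study describes cages as belonging to a treatment group, so diet was given by cage. No fit held a term for cage, and every SE and p value treats cage mates as independent.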

Additional observations from a re-analysis of the deposited data

Results flagged for a closer look

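The interaction of diet and set was tested by edgeR's quasi-likelihood test. The diet effect differed between the STF and LTF sets at an unadjusted p under 0.05 for 3 of the 62 members. Of all 14020 genes tested, 451 (3.22%) did so, and the member count was not tested against this share. None of these 3 members passed the adjustment over all genes (adjusted p = 0.9999 for each), as did none of the 14020 genes. For Eef2k the effect in the LTF set minus that in the STF set was 0.94 on the log2 scale (SE 0.40, p = 0.0231 from edgeR), with HFD below the RFD median in 10 of 11 mice of the STF set and 7 of 12 of the LTF set. For Eif2s3x it was -0.99 (SE 0.45, p = 0.0333 from edgeR), with HFD above the RFD median in 10 of 11 and 9 of 12 mice. In the LTF set RFD mice 3 and 1 had 152 and 105 CPM of Eif2s3x, against an RFD median of 32.1 CPM. Its log2 fold change there ran from -0.12 to 0.27 with single libraries left out. Within the number series of that set the differences in mean log2 CPM were -0.44, 0.38 and 0.54. For Eif2ak2 it was 0.78 (SE 0.39, p = 0.0488 from edgeR), with HFD below the RFD median in 11 of 11 and 6 of 12 mice.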

How the results depend on the processing

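Members called in the STF set numbered 9, and 19 with DESeq2 (these 9 among them), 12 without the filter on low counts, 7 with RLE size factors or the number series as a batch term, and 6 without robust estimation. There were 2 without the libraries under 500000 reads, 1 with the tuft minus other marker covariate, 0 with the stem and dividing covariate and 0 with limma on log2(TPM + 1). All genes called numbered 466 of 14020 (3.32%), and in the same order 1534 (10.9%), 1698 of 32545 (5.22%), 480 (3.42%), 456 (3.25%), 431 (3.07%), 290 (2.07%), 43 (0.307%), 1 (0.00713%) and 9 (0.0642%). Leaving out each library gave 0 to 23 in the STF set and 0 to 7 in the LTF set, and medians from 0.30 to 0.43 and from 0.16 to 0.33. In the LTF set the tuft minus other covariate gave 1, with 180 genes (1.28%), and every other setting 0, and the interaction gave 0 in all. No library of the LTF set had under 500000 reads, so that setting gave no separate value there. The fits with the number series also left out the libraries in no series, STF RFD mouse 84 and LTF HFD mouse 65. Their counts therefore mix the added term with the lost library. The pyrimidine tract was held by 2 members at the start and by 14 within 5 bases of it. By TPM and by FPKM the 10 highest members were the same genes. Within a library both measures order genes alike by definition, so this was no independent check of the order.

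Of the 62 members, 11 reversed in the STF set and 7 in the LTF set with the stem and dividing covariate, 6 and 11 with limma, and 20 for the interaction with limma. The values below cover the members named by rule, for which each reversed fold change was uncalled. With limma on log2(TPM + 1) they were, in the STF set, -0.0106 for Eef2, -0.27 for Eif2ak1 and -0.33 for Eif2s3y, in the LTF set 0.0074 for Eif2ak3, 0.19 for Eif2s3x and -0.13 for Eif2s3y, and for the interaction 0.0355 for Eef1a1, 0.10 for Eif1a, 0.26 for Eif3e and 0.26 for Eif3h. With the stem and dividing covariate they were -0.0332 for Eef2kmt, -0.0907 for Eif1ax, -0.0471 for Eif2ak1, -0.12 for Eif2s3y, -0.0234 for Eif3k and -0.21 for Eif4ebp1 in the STF set, and 0.0707 for Eif2ak2 and 0.0122 for Eif4ebp3 in the LTF set. Eif2ak1 was -0.0192 with DESeq2, -0.0233 with RLE size factors and -0.0324 without low totals. In the LTF set Eif2s3x was 0.0018 and Eif4ebp3 0.0021 without the filter, Eif2s3x was 0.12 with the number series, and Eif2s3y was -0.00094 with RLE size factors. The interaction of Eef1a1 was 0.19 and that of Eif3e 0.21 with the tuft minus other covariate. The causes were not tested. The stem and dividing covariate, the fit without robust estimation and the left-out libraries (Eif2s3x without HFD mouse 63 among them) were chosen after seeing the data. No paired analysis was possible because RFD and HFD mice of a set share no number.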
